A study of Mus musculus with 6 samples.

Results

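The genes of platelet-derived growth factor (PDGF) signalling, Pdgfa, Pdgfb, Pdgfc and Pdgfd for the ligands and Pdgfra and Pdgfrb for the receptors, were described in embryonic mouse aorta, in its ascending and its descending segment. They were taken by name as the whole ligand and receptor family, 6 genes of the 19938 measured, each through the single probe set that the array's annotation gives it. Ascending and descending aorta of wild-type C57BL/6 embryos at 13.5 days postcoitum, without treatment, were each measured on 3 Affymetrix arrays, 6 in all. The 2 segments were chosen by the submitters to compare smooth muscle of neural crest and of mesodermal origin. RNA came from primary tissue, so each value can mix smooth muscle with other cell types, and fewer cells of a type cannot be told apart from less RNA per cell. The labels name biological replicates but no embryo, litter or pool, so the tests measure the spread between these arrays, which may be technical in part.

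PDGF ligands are dimers that pair receptor tyrosine kinases at the cell surface. PDGF-A and PDGF-C act mainly through the alpha receptor, PDGF-D mainly through the beta receptor, and PDGF-B binds both. In developing vessels, endothelial PDGF-B recruits smooth muscle cells and pericytes that carry the beta receptor, while the alpha receptor marks fibroblasts and other mesenchyme, including cells derived from neural crest and epicardium. PDGF-A and PDGF-B are cut to their active form inside the cell, whereas PDGF-C and PDGF-D are secreted in a latent form whose CUB domain is removed outside it.

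Of the ligands with a CUB domain, Pdgfc had the higher mean in ascending aorta and Pdgfd the lower, and their promoter windows are shown because Pdgfd is the member whose groups did not overlap and Pdgfc the member called when 1 array is left out. The windows come from RefSeq (GRCm38.p6), 250 bases before to 50 bases after an annotated gene start. Windows of 4 of the 6 genes were searched here, namely Pdgfa, Pdgfc, Pdgfd and Pdgfra. Pdgfrb was left out of the search, and no window for Pdgfb was among those at hand. This says nothing about whether RefSeq holds a window for either gene. The Pdgfc window lies at chr3:81036166-81036465 and the Pdgfd window at chr9:6168236-6168535, both on the plus strand. Both strands were searched for 5 motifs: the TATA box (searched as TATAAA), the GC box (searched as GGGCGG), the GATA motif (searched as GATAA), the E-box (searched as CANNTG) and the CArG box, the sequence that serum response factor binds. Capitals mark the matches, which are letters found in the window and not measured binding sites.
Pdgfc: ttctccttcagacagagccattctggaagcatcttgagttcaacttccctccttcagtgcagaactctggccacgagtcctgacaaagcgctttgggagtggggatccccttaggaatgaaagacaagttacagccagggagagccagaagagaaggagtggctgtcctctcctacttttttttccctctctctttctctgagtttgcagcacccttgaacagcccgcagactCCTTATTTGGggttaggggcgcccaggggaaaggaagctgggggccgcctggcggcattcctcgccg
Pdgfd: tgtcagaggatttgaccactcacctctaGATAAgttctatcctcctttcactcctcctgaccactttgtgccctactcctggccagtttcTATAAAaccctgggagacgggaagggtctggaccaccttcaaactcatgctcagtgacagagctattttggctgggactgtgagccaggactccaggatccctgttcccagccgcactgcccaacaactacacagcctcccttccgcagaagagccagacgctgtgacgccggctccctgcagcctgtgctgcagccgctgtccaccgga
The Pdgfc window held 1 CArG box, 17 to 8 bases before the start, a motif present in 1.63% of 32851 windows of this length, and none of the other motifs. The Pdgfd window held 1 TATA box (13.6% of windows hold one) and 1 GATA motif (25.4% of windows). The TATA box lay 160 to 155 bases before the start that defines this window. That start lies inside the gene, past its first listed base, 6168363, and the TATA box is nearer to that base. GC boxes, in 35.7% of the 32851 windows, and E-boxes, in 72.3%, were in neither. The 2 windows of Pdgfa held 1 and 2 GC boxes, and the window of Pdgfra held 2 E-boxes.

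All values below are log2 expression after RMA, so a difference of 1 is a 2-fold change, and every difference is ascending minus descending. Array medians lay between 7.14 and 7.22, and all 6 PDGF genes lay above the all-gene median on all 6 arrays. The array labelled ascending aorta replicate 3 went against its label: across genes its mean Pearson correlation was 0.988 with the other ascending arrays and 0.996 with the descending arrays. Whether that label is right was not tested; the array was kept in its labelled group, and directions drawn with it rest on the label. Values with and without it are given for the PDGF genes, for the number of genes called in each list and for each named gene of those lists that passed the test without it, and since it was singled out by its values, the p-values without it are likely too small. Ascending replicate 2 also stood apart, with correlations of 0.986 with ascending replicate 3 and 0.983 to 0.987 with the descending arrays. Its correlation with ascending replicate 1 was 0.993. All 10 smooth muscle markers lay above the all-gene median on all 6 arrays, with summed levels of 14.85 to 15.17 in ascending and 14.95 to 15.00 in descending aorta on the log2 scale.

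No PDGF gene passed the test over all 6 arrays. By limma 0 of the 6 had an adjusted p under 0.05, as did 0% of all genes, where the smallest adjusted p was 0.53. By mean level 2 members, Pdgfc and Pdgfa, were higher in ascending aorta and 4 were lower. At an unadjusted p under 0.05 there was 1 member, Pdgfd, against 9.29% of all genes (3.96% higher and 5.33% lower). In the per-gene test without moderated variance there were 0 members. The share of all genes was not counted for that test, and the 9.29% does not refer to it. The ascending arrays lay entirely below the descending ones for 1 member, Pdgfd, and above them for 0. Over all genes the arrays did not overlap for 14.8%, with 5.87% higher and 8.95% lower. The median difference over the 6 genes was -0.13, against -0.021 over all genes, and the median size of the difference without its sign was 0.21 against 0.092. The all-gene values include dim genes, whose differences RMA shrinks, so the sizes are not compared at like brightness.

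**Figure D1:**
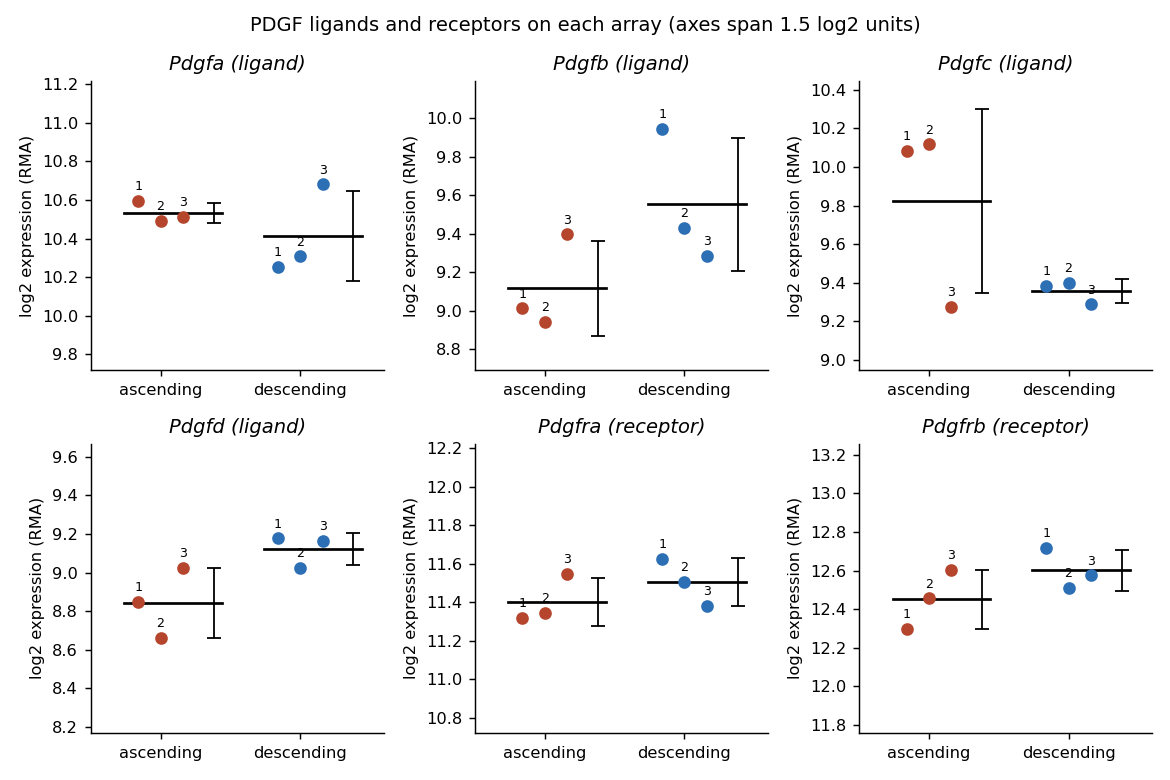
Log2 expression (RMA) of each PDGF gene on the 3 ascending (left) and 3 descending (right) arrays, with points numbered by replicate, horizontal lines for the means and bars for the SD (n = 3). Pdgfc was at 10.1 on ascending replicates 1 and 2 and between 9.28 and 9.40 on the other 4 arrays, while the receptors spanned at most 0.42 over all arrays.

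Pdgfc, the CUB-domain ligand of the alpha receptor (chromosome 3, 81036416 to 81214040, GRCm38.p6), had the largest SD over the arrays of the 6 genes. Its values were 10.08, 10.12 and 9.28 on ascending replicates 1, 2 and 3, against 9.38, 9.40 and 9.29 on descending replicates 1, 2 and 3. Ascending replicates 1 and 2 lay above all the other arrays, and ascending replicate 3 was the lowest of all 6, so the groups overlapped. Pdgfc averaged 9.83 ± 0.48 in ascending and 9.36 ± 0.061 in descending aorta (SD, n = 3 each). The difference was 0.47 ± 0.21 (SE), a 1.38-fold higher level with a 95% interval from 0.979 to 1.95 (adjusted p = 0.538 by limma). Without ascending replicate 3, Pdgfc rose by 0.74 ± 0.091 (SE) on the log2 scale, or 1.67-fold (adjusted p = 0.00439 by limma on 5 arrays). It was the 1 member of 6 called there, where 4.68% of all genes were called, 2.07% higher and 2.61% lower in ascending aorta. Without both ascending replicate 3 and descending replicate 1, the descending array least like the others of its segment, the difference was 0.76 ± 0.093 (adjusted p = 0.0192 by limma on 4 arrays).

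Marker lists of 3 other tissues had higher list medians on ascending replicates 1 and 2, where Pdgfc was high, than on any descending array. For markers of mesothelium and epicardium, the coverings of body cavities and heart, the median over the list of expression minus each gene's descending mean was 1.16 on ascending replicate 1, 1.27 on replicate 2 and 0.43 on replicate 3, against -0.13, -0.041 and 0.14 on descending replicates 1, 2 and 3. Of 8 genes 7 had the higher mean in ascending aorta, their summed log2 level was 12.68 to 13.69 there and 12.35 to 12.60 in descending aorta, and by the descending means 5 of 8 exceeded the all-gene median. Without ascending replicate 3 the median difference of that list was 1.21, against 0.87 with it. Cardiac muscle markers were higher by their means in 10 of 10 genes (median 0.25), with summed levels of 12.63 to 13.37 in ascending and 12.15 to 12.54 in descending aorta. Their list median was 0.20, 0.43 and 0.16 on ascending replicates 1 to 3, against 0.024, -0.17 and 0.16 on descending replicates 1 to 3. Epithelial markers had higher means in 6 of 6 genes (median 0.26, or 0.41 without ascending replicate 3), with summed levels of 10.19 to 11.13 in ascending and 10.10 to 10.19 in descending aorta, and 2 of the 6 exceeded the all-gene median. Their list median was 0.84, 0.11 and 0.045 on ascending replicates 1 to 3, against -0.0089, 0.036 and 0.013 on descending replicates 1 to 3. The 2 that passed without ascending replicate 3 were keratin genes that mesothelium expresses as well, Krt8 (0.75 with that array and 1.10 without it, adjusted p = 0.00532 by limma) and Krt18 (0.50 with it and 0.72 without it, adjusted p = 0.0303 by limma). On ascending replicate 3, where Pdgfc was lowest, the mesothelial list lay above all descending arrays and the cardiac list level with descending replicate 3, while the epithelial list was just above the descending arrays. Log2 array values have no true zero, so no marker can be called absent. The part of these tissues in the Pdgfc values was not tested.

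Pdgfd, the CUB-domain ligand of the beta receptor (chromosome 9, 6168363 to 6534284), was lower in ascending aorta on all 3 arrays. Its values were 8.85, 8.66 and 9.02 on ascending replicates 1 to 3, against 9.18, 9.02 and 9.16 on descending replicates 1 to 3. The groups only just failed to overlap, since ascending replicate 3 read 9.0225 and descending replicate 2 read 9.0243. Pdgfd averaged 8.84 ± 0.18 in ascending and 9.12 ± 0.085 in descending aorta (SD, n = 3 each). The difference was -0.28 ± 0.11 (SE), a ratio of 0.824 with a 95% interval from 0.692 to 0.982, and it did not pass over all genes (adjusted p = 0.53 by limma). Without ascending replicate 3 it was -0.37 ± 0.10 (adjusted p = 0.101 by limma).

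Pdgfb, the ligand that endothelium supplies to mural cells (chromosome 15, 79995865 to 80024614), had the widest range of the family, 1.002 on the log2 scale. Its values were 9.01, 8.94 and 9.40 on ascending replicates 1 to 3, against 9.94, 9.43 and 9.29 on descending replicates 1 to 3. Ascending replicates 1 and 2 were the lowest of the 6 arrays and descending replicate 1 the highest, with the other 3 between 9.29 and 9.43, so the groups overlapped. Pdgfb averaged 9.12 ± 0.25 in ascending and 9.55 ± 0.35 in descending aorta (SD, n = 3 each), a difference of -0.44 ± 0.19 (SE, adjusted p = 0.538 by limma). The ratio was 0.739, with a 95% interval from 0.543 to 1.006. Leaving out descending replicate 1 moved the difference to -0.24 ± 0.15, and leaving out ascending replicate 3 moved it to -0.58 ± 0.18 (adjusted p = 0.841 and adjusted p = 0.141 by limma). At an unadjusted p under 0.05, 3 members stood out without ascending replicate 3, namely Pdgfb, Pdgfc and Pdgfd, against 17.2% of all genes.

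Endothelial markers were lower by their means in ascending aorta in 12 of 12 genes, with a median difference of -0.40, or -0.52 without ascending replicate 3, and 11 of the 12 lay above the all-gene median on all 6 arrays. Their list median, centred in the same way, was -0.49, -0.51 and -0.15 on ascending replicates 1 to 3, against 0.12, -0.095 and -0.0079 on descending replicates 1 to 3. The summed log2 level of the list was 14.06 to 14.60 in ascending and 14.64 to 14.83 in descending aorta, so ascending replicates 1 and 2 were low and descending replicate 1 high for these markers as for Pdgfb. Platelets carry PDGF as well, and their markers had lower means in ascending aorta in 4 of 4 genes (median -0.49). That list, however, was low on ascending replicate 2 alone, at -1.37, where ascending replicates 1 and 3 gave -0.059 and -0.020. The part of either cell type in the Pdgfb values was not tested.

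Pdgfa, the classical ligand of the alpha receptor (chromosome 5, 138976014 to 139000792), was steady in ascending aorta and spread in descending aorta. Its values were 10.59, 10.49 and 10.51 on ascending replicates 1 to 3, against 10.25, 10.31 and 10.68 on descending replicates 1 to 3. Descending replicate 3 was the highest of the 6 arrays and the other descending arrays the lowest, so the ascending arrays lay within the descending range. Pdgfa averaged 10.53 ± 0.054 in ascending and 10.41 ± 0.23 in descending aorta (SD, n = 3 each), a difference of 0.12 ± 0.12 (SE, adjusted p = 0.757 by limma). The 95% interval ran from -0.16 to 0.40, and without descending replicate 3 the difference was 0.25 ± 0.089 (adjusted p = 0.632 by limma).

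Pdgfra, the alpha receptor gene (chromosome 5, 75151322 to 75198206), read 11.32, 11.35 and 11.55 on ascending replicates 1 to 3, against 11.63, 11.51 and 11.38 on descending replicates 1 to 3. The groups overlapped, with ascending replicates 1 and 2 the lowest of the 6 arrays. Its mean was 11.40 ± 0.12 in ascending and 11.50 ± 0.12 in descending aorta (SD, n = 3 each). The difference of -0.10 ± 0.10 (SE) had a 95% interval from -0.33 to 0.13 (adjusted p = 0.748 by limma), which holds ratios from 0.793 to 1.10. It was -0.040 without descending replicate 1 and -0.17 without ascending replicate 3.

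Pdgfrb, the beta receptor gene of smooth muscle and pericytes, read 12.30, 12.46 and 12.60 on ascending replicates 1 to 3, against 12.72, 12.51 and 12.58 on descending replicates 1 to 3. Again ascending replicates 1 and 2 were the lowest arrays and descending replicate 1 the highest, and ascending replicate 3 lay among the descending arrays. The means were 12.45 ± 0.15 in ascending and 12.60 ± 0.11 in descending aorta (SD, n = 3 each), a difference of -0.15 ± 0.10 (SE, adjusted p = 0.648 by limma). The 95% interval ran from -0.39 to 0.090, or ratios from 0.762 to 1.06, and the difference was -0.092 without descending replicate 1 and -0.23 without ascending replicate 3. In both receptor genes the SD over the 6 arrays, 0.12 for Pdgfra and 0.14 for Pdgfrb, was near the all-gene median of 0.13, whereas it was 0.40 for Pdgfc and 0.36 for Pdgfb. Of all genes, dim ones included, 95.9% had a smaller SD than Pdgfc and 94.9% a smaller SD than Pdgfb.

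**Figure D2:**
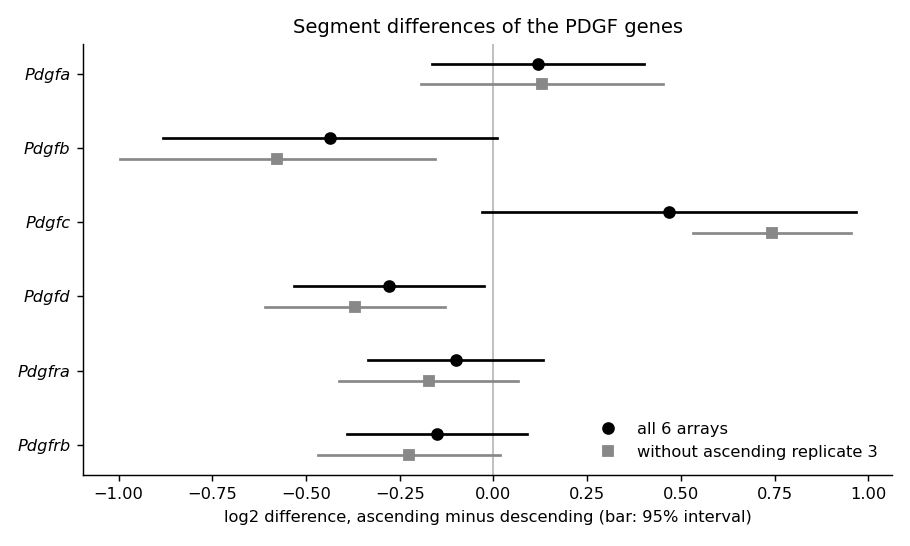
Log2 difference between ascending and descending aorta for each PDGF gene, with 95% intervals from limma, over all 6 arrays (black circles) and without ascending replicate 3 (grey squares). Over all arrays the interval of Pdgfd, from -0.53 to -0.027, lay below 0, and without ascending replicate 3 the interval of Pdgfc ran from 0.53 to 0.95.

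Cells that carry the receptors were followed through marker lists. Pericyte markers had lower means in ascending aorta in 7 of 8 genes, with a median of -0.21, and their summed log2 level was 13.83 to 14.04 there and 14.02 to 14.28 in descending aorta. Anpep, a pericyte surface peptidase, differed by -1.01 ± 0.39 (SE), and Abcc9, a subunit of the pericyte potassium channel, by -0.43 ± 0.14. Fibroblast and adventitia markers had lower means in 8 of 10 genes (median -0.41), with summed levels of 14.41 to 14.94 in ascending and 14.96 to 15.00 in descending aorta. Dpt, the matrix protein dermatopontin, differed by -1.22 ± 0.27, while Tcf21, a transcription factor of fibroblasts and epicardium, differed by 1.41 ± 0.31 (SE). None of these genes passed over all 6 arrays (adjusted p = 0.53 by limma for each of the 4). Without ascending replicate 3, limma called Anpep (-1.42, adjusted p = 0.0295), Dpt (-1.52, adjusted p = 0.00393) and Tcf21 (1.81, adjusted p = 0.000261). Rgs5, a regulator of G protein signalling in pericytes and the 1 pericyte marker with the higher mean, was chosen after its values were seen. It read 12.20, 12.19 and 10.95 on ascending replicates 1 to 3, against 11.33, 11.29 and 11.29 on descending replicates 1 to 3. Like Pdgfc, Rgs5 was high on ascending replicates 1 and 2 and lowest on ascending replicate 3. It differed by 0.48 ± 0.31 (SE, adjusted p = 0.631 by limma) over all arrays and by 0.89 ± 0.087 without ascending replicate 3 (adjusted p = 0.00169 by limma). For these cell types, their part in the receptor values was not tested.

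Proteins that activate or bind the ligands had lower means in ascending aorta in 9 of 12 measured genes, with a median of -0.14. At an unadjusted p under 0.05 there were 4 of the 12, all lower, against 5.33% of all genes lower, and 0 passed over all genes. The proteases that free PDGF-D from its CUB domain, Plau (urokinase) and St14 (matriptase), differed by -0.26 ± 0.091 and -0.25 ± 0.093 (SE). Plau stood at 8.36, 8.40 and 8.57 on ascending replicates 1 to 3, against 8.81, 8.66 and 8.63 on descending replicates 1 to 3, with no overlap between the groups. Plat, the tissue plasminogen activator that frees PDGF-C, differed by -0.018 ± 0.086; it stands here as the counterpart of these proteases and not by the size of its difference. Lrp1, a large endocytic receptor that binds PDGF-B and the beta receptor, differed by -0.35 ± 0.14, and Pcsk5, a proprotein convertase, by -0.28 ± 0.11 (SE, adjusted p = 0.53 by limma for each of the 4 lower genes).

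Signalling proteins that dock on the activated receptors had a median difference of -0.071 over 17 genes, 11 of them with lower means. At an unadjusted p under 0.05, 3 of the 17 were lower and 0 higher, against 5.33% and 3.96% of all genes. Pik3r1, the regulatory subunit through which PI 3-kinase binds the receptors, was the furthest apart, at 10.03, 9.76 and 10.36 on ascending replicates 1 to 3, against 10.80, 10.78 and 10.46 on descending replicates 1 to 3. Its groups did not overlap, and the difference was -0.63 ± 0.16 (SE, adjusted p = 0.53 by limma), or -0.79 ± 0.14 without ascending replicate 3 (adjusted p = 0.0189 by limma). Plcg1, the phospholipase C gamma gene, differed by -0.27 ± 0.10, the Src family kinase gene Fyn by -0.31 ± 0.13 and the adaptor gene Nck1 by -0.19 ± 0.086 (SE). The other docking genes, among them Grb2, Shc1 and Ptpn11, had differences between -0.18 and 0.065.

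Negative regulators of the receptors had a median of 0.064 over 8 genes, with 5 means higher and 3 lower, and 1 gene of the 8, Ptprj, lower at an unadjusted p under 0.05, where 5.33% of all genes were lower. Ptprj, a phosphatase that removes phosphate from the receptors, differed by -0.35 ± 0.13, the ubiquitin ligase gene Cblb by -0.31 ± 0.14 and the phosphatase genes Acp1 and Ptpn2 by 0.19 ± 0.095 and 0.17 ± 0.11 (SE). Early response genes, which growth factors switch on within a short time, had lower means in 11 of 17 members (median -0.082), with 1 higher and 1 lower of the 17 at an unadjusted p under 0.05, shares near the 3.96% higher and 5.33% lower of all genes. Ccl2, a chemokine, differed by -0.51 ± 0.14 and Egr1, a zinc finger factor, by -0.40 ± 0.18. In the other direction Has2, a hyaluronan synthase, differed by 0.41 ± 0.14 and Ptgs2, a prostaglandin synthase, by 0.52 ± 0.24 (SE). None of the genes of either list was called over all 6 arrays. Without ascending replicate 3, limma called Ptgs2 (0.82 ± 0.12, adjusted p = 0.00872) and Ccl2 (-0.64 ± 0.13, adjusted p = 0.0304).

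The VEGF ligands, which share the cystine knot fold of the PDGFs, had a median of -0.092 over 5 genes. Vegfd, a ligand of the lymphatic VEGF receptor, stood at 9.22, 8.10 and 10.46 on ascending replicates 1 to 3, against 10.39, 10.39 and 10.53 on descending replicates 1 to 3. Ascending replicates 1 and 2 lay below all the other arrays and ascending replicate 3 among the descending ones, and the difference was -1.17 ± 0.50 (SE, adjusted p = 0.538 by limma), or -1.77 ± 0.27 without ascending replicate 3 (adjusted p = 0.0114 by limma). Vegfa differed by -0.21 ± 0.098, Pgf by -0.092 ± 0.076 and Vegfc by 0.12 ± 0.11 (SE). The receptors most like the PDGF receptors in structure, the Kit receptor family with its ligands, had lower means in 7 of 7 genes (median -0.27), 3 of them at an unadjusted p under 0.05, where 5.33% of all genes were lower. Kitl, the ligand of the Kit receptor, differed by -0.49 ± 0.12, Kit by -0.54 ± 0.18 and Csf1, the macrophage growth factor, by -0.31 ± 0.10 (SE, adjusted p = 0.53 by limma for each). Flt3l differed by -0.18 ± 0.088. Kit was the 1 gene of the 7 called without ascending replicate 3, at -0.73 ± 0.13 (adjusted p = 0.0214 by limma).

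**Figure D3:**
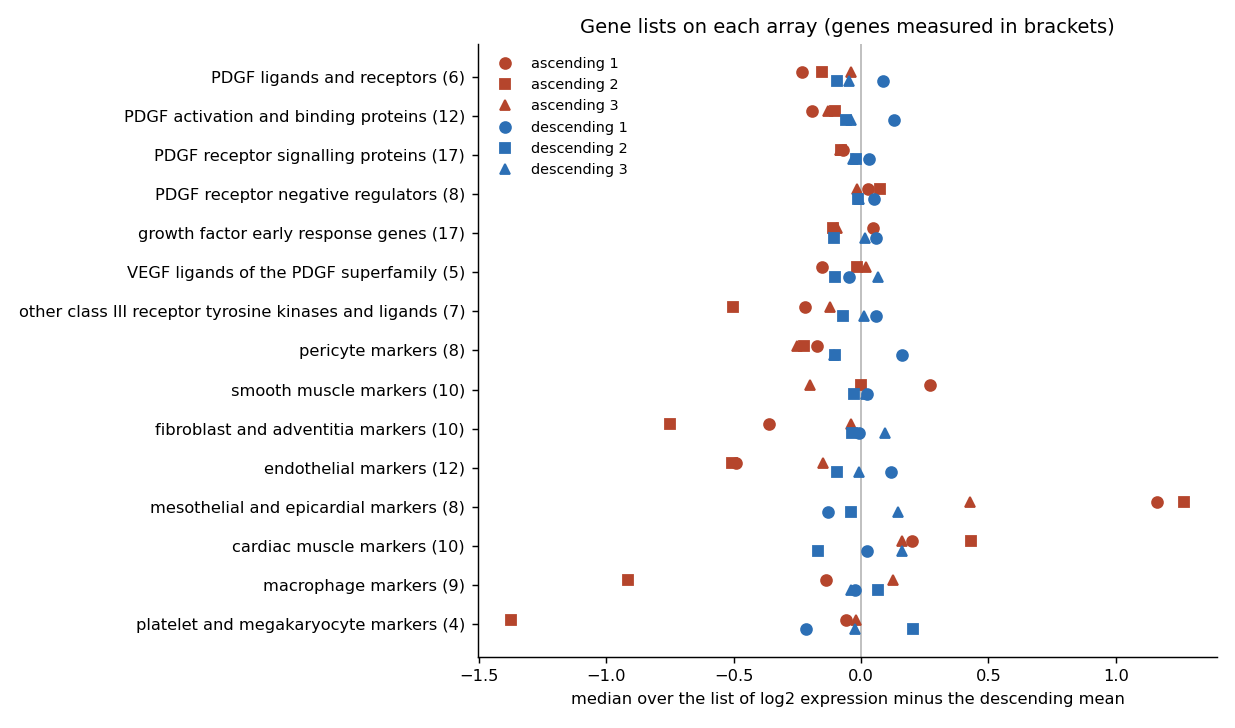
Median over each gene list drawn of log2 expression minus the gene's descending mean, for the 3 ascending arrays (red) and the 3 descending arrays (blue), with the number of genes measured in brackets. The epithelial, skeletal muscle, neuron and Schwann cell, cartilage and erythroid lists are not drawn. The medians of the 6 PDGF genes lay between -0.23 and 0.086 on all arrays, while the mesothelial and epicardial list reached 1.16 and 1.27 on ascending replicates 1 and 2.

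Among the remaining marker lists, smooth muscle had a median difference of 0.013 over 10 genes, and macrophage markers -0.27 over 9 genes with 9 lower means. The macrophage list median was -0.14, -0.92 and 0.13 on ascending replicates 1 to 3, against -0.022, 0.067 and -0.040 on descending replicates 1 to 3. Without ascending replicate 2 the median difference of the macrophage list was -0.0041. Skeletal muscle had a median of 0.0027 over 7 genes, neurons and Schwann cells -0.048 over 5, cartilage 0.019 over 5 and erythroid cells -0.033 over 4. Over all 6 arrays 0 genes of any list passed in limma. Without ascending replicate 3, where 2.07% of all genes were called higher and 2.61% lower, mesothelial and epicardial markers had 5 of 8 genes higher, and smooth muscle and cardiac muscle had 2 of 10 each and epithelium 2 of 6. On the lower side endothelial markers had 5 of 12 genes and macrophage markers 3 of 9. Fibroblast markers had 1 higher and 4 lower of 10, the higher one being Tcf21, which the mesothelial list also holds. Pericyte markers had 1 higher and 1 lower of 8, and cartilage markers 2 higher and 1 lower of 5. Neurons and Schwann cells had 1 of 5 higher, and the signalling, VEGF and Kit receptor family lists had 1 lower each. Early response genes had 1 higher and 1 lower, and 0 were called among the activating and binding proteins, the negative regulators and the skeletal muscle, erythroid and platelet markers.

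Genes whose values followed Pdgfc and Pdgfb most closely were found among 17033 other named genes by the root mean square distance between gene-centred log2 values over the 6 arrays. Nearest to Pdgfc were Nadk2, a mitochondrial NAD kinase, Mylk3, the cardiac myosin light chain kinase, Tmem98, Syt11 and Cav3, the muscle caveolin. Their distances were 0.060 to 0.071, where Pdgfc itself lay at a root mean square of 0.36 from its own mean. Like Pdgfc, all of them were high on ascending replicates 1 and 2 and not on replicate 3: Mylk3, for example, read 7.17, 7.37 and 6.36 on ascending replicates 1 to 3, against 6.50, 6.47 and 6.39 on the descending arrays. Nearest to Pdgfb were Galnt5, Irs1, an adaptor of the insulin receptor, Eng, the endothelial TGF-beta co-receptor endoglin, Sertad4 and Mc5r, at distances of 0.054 to 0.083. Eng read 11.18, 11.04 and 11.44 on ascending replicates 1 to 3, against 11.97, 11.54 and 11.54 on descending replicates 1 to 3, and so had the same low and high arrays as Pdgfb. These genes were picked for their likeness, so their values are a description.

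**Figure D4:**
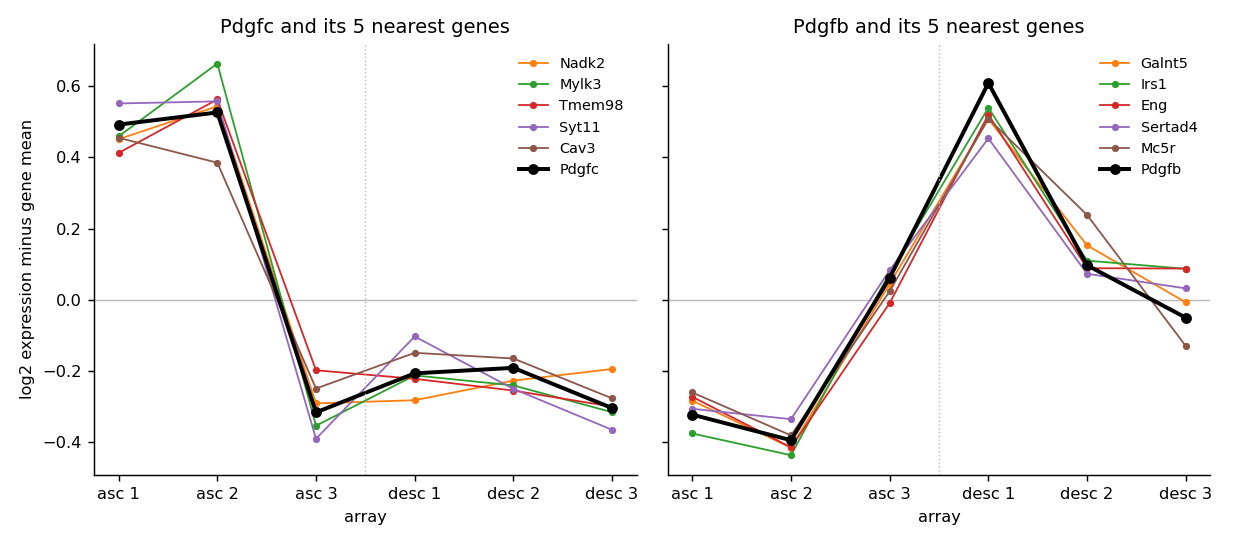
Log2 expression minus each gene's own mean on the 6 arrays for Pdgfc (left) and Pdgfb (right), in black, and for the 5 genes nearest to each. The Pdgfc set is high on ascending replicates 1 and 2, and the Pdgfb set is lowest there and highest on descending replicate 1.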

How the data were processed

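Values for 35556 probe sets on 6 arrays are log2 expression deposited by the authors after RMA. Per the submitters' processing notes, RMA (background subtraction, quantile normalization and probe summary) and Partek 6.6 were used, with settings and genome build not given in the sources used here. Values ran continuously from 2.53 to 14.64, hence the log2 reading. Quantile normalization hides a change shared by most genes, and RMA shrinks differences of dim genes.

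Probe sets were named from the platform annotation of 2016. The 21789 with 1 gene symbol were used, with the highest mean per gene, leaving 19938 genes and no filter. Each PDGF gene had 1 probe set. Segments were compared with lmFit and eBayes (limma 3.58.1, R 4.3.3), two-sided, with no covariates and Benjamini-Hochberg adjustment over all genes (threshold 0.05). Exact permutation was not used, since with 3 arrays a segment its smallest p is 0.1. The script was tested on simulated data. Tables and plots were made in Python 3.11.15 (pandas 2.3.3, matplotlib 3.10.9).

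The members, 6 pathway lists and 13 marker lists were chosen with earlier results of these data known. Named were all members, genes taken from the 4 with the smallest p of each list described at length, and the 5 genes nearest to each of the 2 most variable members. Not all of those 4 were described in every list. Among pericyte markers Mcam, at -0.24 ± 0.088 (SE), was passed over although its p was smaller than that of Anpep. Plat, Grb2, Shc1, Ptpn11, Rgs5, Krt8 and Krt18 were added after their values were seen. Alternatives covered normalization, filters, probe sets, the variance model, weighting of arrays, a block for the replicate number and leaving out arrays.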

Additional observations from a re-analysis of the deposited data

How the results depend on the processing

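Over all 16 alternatives the 6 PDGF genes kept the sign of their difference. The filters, the mean of probe sets, the changes of variance model and the replicate block cannot move these differences. Their sign could change only with another normalization, array weights or arrays left out. The count of genes past the threshold was 0 over all arrays and in every alternative except 2: it was 933 without ascending replicate 3 and 469 without both that array and descending replicate 1. Leaving out 1 array in turn thus gave 0 to 933 genes, and the cause was not tested. In those same 2 fits Pdgfc passed, at 0.74 and 0.76, and no other member passed in any fit. With 1 array left out the difference ran from 0.32 to 0.74 for Pdgfc, 0.038 to 0.25 for Pdgfa, -0.58 to -0.24 for Pdgfb, -0.37 to -0.19 for Pdgfd, -0.17 to -0.040 for Pdgfra and -0.23 to -0.073 for Pdgfrb. Array weights gave 0.55 for Pdgfc (adjusted p = 0.273 by limma), where its adjusted p ranged from 0.00439 to 0.841 over the alternatives. Same-numbered arrays did not deviate together (correlations of -0.080, -0.055 and 0.024 across genes, with 1 of 6 arrays closest to its own number). With 3 arrays a segment and no embryo named in the labels, this check cannot exclude that the numbers pair the samples. With the replicate number as a block 0 genes passed and Pdgfc differed by 0.47 ± 0.17 (SE, adjusted p = 0.602 by limma). With 3 arrays a segment, precision is limited throughout.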
